A study of Saccharomyces cerevisiae with 9 samples.

Results

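The genes described here make, export and cut chitin in the budding yeast Saccharomyces cerevisiae. They are the 3 chitin synthase catalytic subunits CHS1, CHS2 and CHS3, the genes CHS5, CHS6 and CHS7 that bring Chs3 to the plasma membrane, and the chitinases CTS1 and CTS2. They were taken by name from the authors' deposited tables, where they are 8 of 7012 entries in the CdSe/ZnS table and 8 of 7042 in the InP/ZnS table, and all 8 were tested in both. Cells of strain S288C were grown in synthetic glucose medium to an optical density of 0.3 to 0.6 and either left untreated or exposed for 6 h to 10 µg/mL of CdSe/ZnS or 100 µg/mL of InP/ZnS quantum dots. Quantum dots are semiconductor nanocrystals, here with a core of cadmium selenide or indium phosphide in a shell of zinc sulfide. The InP/ZnS dose is that of the design text, since the treatment text of the labels gives it in mg/mL, so its unit is uncertain.

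Each condition had 3 libraries, for which the labels do not name separate cultures, so every test measures library-to-library spread, and that may be technical. The deposited values were 1 FPKM per gene and condition (fragments scaled by gene length and library size), so values per library are not shown and the depth is unknown. The labels list 1 set of untreated libraries, which both tables use as control with their own scaling; the untreated FPKM of the median gene was 1.14 times higher in the InP/ZnS table. A gene is called higher or lower where the authors' q was under 0.05. The labels give no mating type; by the authors' deposited CdSe/ZnS table the receptor gene of a cells, STE2, stood at 102 FPKM untreated and that of alpha cells, STE3, at 3.76 FPKM. STE3 shares a locus with another entry. The other a-cell markers MFA1, MFA2, AGA2, BAR1 and STE6 stood at 18407.2, 22154.5, 363, 26.0 and 17.5 FPKM in those untreated cells. The alpha-cell markers MF(ALPHA)1, MF(ALPHA)2 and SAG1 stood at 0.848, 45.9 and 28.3 FPKM. S288C is usually described as an alpha strain, and the levels of STE2 and STE3 disagree with that description. Of the other markers, MFA1, MFA2 and AGA2 stood above every alpha-cell marker, and BAR1 and STE6 stood below MF(ALPHA)2 and SAG1. An overlap in level between different genes does not decide the mating type, which was not tested and stays uncertain.

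Chitin is a polymer of N-acetylglucosamine that makes up a small part of the yeast cell wall. Chs2 lays down the primary septum at division, Chs3 makes the chitin ring at the bud neck and most of the chitin of the lateral wall, and Chs1 repairs the birth scar after the daughter has left. Chs7 helps Chs3 leave the endoplasmic reticulum, and Chs5 and Chs6 act in the exomer complex that carries it from the trans-Golgi to the plasma membrane. Cts1 is the secreted chitinase that cuts the septum so that mother and daughter part, and its gene is transcribed in daughter cells after division. Cts2 is a second putative chitinase, linked to spore wall formation.

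The enzymes are recognised by short signatures around the active site, and the DNA that encodes them is shown because it tells how far the reads of these related genes can be told apart. Capitals mark the codons of the chitin synthase signature (glutamine, any 2 residues, arginine, tryptophan) in CHS1 to CHS3 and those of the family 18 chitinase signature, which has 3 aspartates and a glutamate, in CTS1 and CTS2. Each signature was found once per gene by translating the RefSeq R64 genome sequence, and each line reads 5′ to 3′ on the coding strand.
CHS1: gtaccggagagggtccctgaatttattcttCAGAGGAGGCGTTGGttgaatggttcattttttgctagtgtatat
CHS2: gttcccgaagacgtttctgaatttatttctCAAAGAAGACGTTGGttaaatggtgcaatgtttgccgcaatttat
CHS3: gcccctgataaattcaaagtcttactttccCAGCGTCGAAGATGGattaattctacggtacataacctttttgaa
CTS1: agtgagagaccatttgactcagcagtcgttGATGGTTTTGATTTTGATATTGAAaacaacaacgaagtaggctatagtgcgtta
CTS2: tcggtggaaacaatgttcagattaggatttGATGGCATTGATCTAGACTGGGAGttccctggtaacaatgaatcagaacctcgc
The stretches lie at chrXIV:278737-278811 on the plus strand, chrII:313668-313742 on the plus strand, chrII:284908-284982 on the minus strand, chrXII:709636-709719 on the minus strand and chrIV:1220028-1220111 on the plus strand. The signature falls at codons 756 to 760 of CHS1, 601 to 605 of CHS2 and 992 to 996 of CHS3, and at codons 150 to 157 of CTS1 and 216 to 223 of CTS2. Over these 75 bases CHS1 and CHS2 had 69.3% of positions in common, CHS1 and CHS3 44.0% and CHS2 and CHS3 46.7%, so CHS1 was closer to CHS2 there than to CHS3. Over their 84 bases CTS1 and CTS2 had 38.1% in common. The longest run of bases shared by any pair of the 8 genes, on either strand, was 15, between CHS1 and CHS3, well below the shortest reads kept, which were 80 bp.

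All 8 genes have 1 coding exon, and by the authors' deposited table and the RefSeq annotation they have the same coordinates in R64. CHS1 (YNL192W) lies on chromosome XIV from 276502 to 279897, CHS2 (YBR038W) on chromosome II from 311898 to 314789 and CHS3 (YBR023C) on chromosome II from 284428 to 287925. CHS5 (YLR330W) lies on chromosome XII from 787664 to 789679, CHS6 (YJL099W) on chromosome X from 239414 to 241654 and CHS7 (YHR142W) on chromosome VIII from 383538 to 384488. CTS1 (YLR286C) lies on chromosome XII from 708448 to 710136 and CTS2 (YDR371W) on chromosome IV from 1219413 to 1220948. CHS7 has the daughter-specific gene DSE2 as its neighbour, 1021 bp away. In both tables CTS1 shares its locus with the entry YLR286W-A and CTS2 with YDR371C-A, so the values of both chitinases are uncertain in the way reads were divided. In the authors' deposited tables YLR286W-A stood at 1727 FPKM untreated and 1225 FPKM with CdSe/ZnS, and at 2486 FPKM untreated and 1953 FPKM with InP/ZnS. YDR371C-A stood at 496 FPKM untreated and 30.3 FPKM with CdSe/ZnS, and at 146 FPKM untreated and 537 FPKM with InP/ZnS, so its untreated value differed between the tables far more than that of the median gene.

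In untreated cells CTS1 and CHS1 were far above the other enzymes of their kind. On the FPKM scale, which allows for gene length, the order by the authors' deposited CdSe/ZnS table was CTS1 at 414, CHS1 at 262, CHS5 at 136, CHS7 at 44.9, CTS2 at 19.5, CHS3 at 12.9, CHS6 at 10.5 and CHS2 at 9.71. The InP/ZnS table gave the same order, with CTS1 at 466, CHS1 at 291, CHS5 at 157, CHS7 at 53.7, CTS2 at 21.4, CHS3 at 14.2, CHS6 at 12.3 and CHS2 at 11.2 FPKM. No spread over libraries was given, so it cannot be said which neighbours in this order differ beyond it. CHS1 alone held 92.1% of the summed FPKM of CHS1, CHS2 and CHS3 in the untreated cells of the first table and 92.0% in those of the second. Among all tested entries, the untreated levels of CTS1 and CHS1 lay at percentiles 90.6 and 86.2 in the CdSe/ZnS table, and those of CHS2 and CHS6 at percentiles 10.1 and 11.4.

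**Figure D1:**
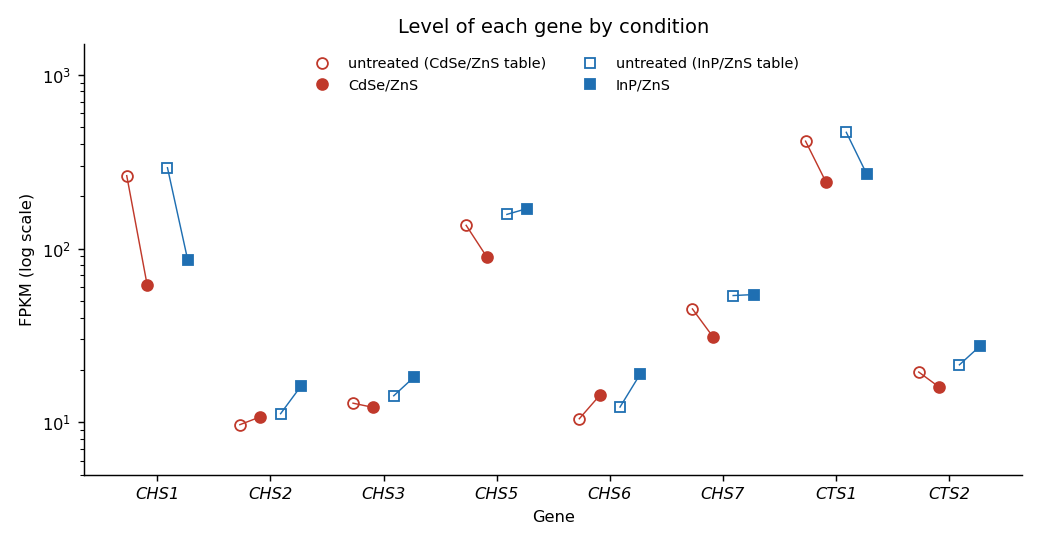
FPKM of the 8 genes on a log axis, with open symbols for untreated cells and filled symbols for exposed cells, joined within a table; each point is the authors' 1 value for a condition of 3 libraries, with no error bar available. CHS1 drops steeply with both quantum dots, from 262 to 62.0 and from 291 to 85.4 FPKM, while CHS2, CHS3 and CHS6 stay between 9.71 and 19.0 FPKM.

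The first comparison asked which of these transcripts differed after exposure to CdSe/ZnS quantum dots. CHS1 fell the most, CTS1, CHS5 and CHS7 fell less, CHS6 rose, and CHS2, CHS3 and CTS2 did not pass. So 4 of 8 genes were called lower and 1 higher, where 43.6% of all 6321 tested entries were called lower and 9.59% higher (53.2% called in all). The share of lower calls is close to that background. The median log2 fold change was -0.41 over the 8 genes and -0.35 over all tested entries. A log2 fold change is therefore also given relative to the median of all entries, with a 2-sided normal test against the standard error that the authors' test statistic implies, adjusted by Benjamini-Hochberg over all entries, where passing means an adjusted value under 0.05. With 3 libraries a condition and no values per library an exact test could not be made, so this test takes the implied error as known and its p-values are not printed. By that measure 13.6% of entries were lower and 11.9% higher, and of the 8 genes CHS1 was lower and CHS6 higher.

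CHS1 went from 262 FPKM in untreated cells to 62.0 FPKM with CdSe/ZnS by the authors' deposited table, a 4.24-fold drop. Its log2 fold change was -2.08 with an implied standard error of 0.27 (q = 0.000173 by the authors' Cuffdiff test, the smallest that table holds), and it was the 81st lowest of 6321 entries. Relative to the median of all entries it was -1.74 and passed. With that drop CHS1 made up 73.0% of the summed FPKM of the 3 catalytic subunits, down from 92.1%, and that sum went from 285 to 84.9 FPKM.

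CHS2, which builds the primary septum, stood at 9.71 FPKM untreated and 10.8 FPKM with CdSe/ZnS by the authors' deposited table. CHS3, which makes the bulk of wall chitin, stood at 12.9 and 12.2 FPKM. Neither passed: the log2 fold changes were 0.15 (95% interval from the implied standard error -0.35 to 0.65, q = 0.462, Cuffdiff) for CHS2 and -0.08 (-0.54 to 0.37, q = 0.675, Cuffdiff) for CHS3. Both intervals lie above that of CHS1, which ran from -2.61 to -1.56.

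Among the genes that export Chs3, CHS5 fell from 136 to 90.0 FPKM and CHS7 from 44.9 to 31.2 FPKM with CdSe/ZnS by the authors' deposited table. Their log2 fold changes were -0.60 (implied standard error 0.23, q = 0.000173, Cuffdiff) and -0.53 (implied standard error 0.24, q = 0.00356, Cuffdiff). These falls were near the shift of all entries: relative to the median they were -0.25 and -0.18, and neither passed; CHS7 did not pass the normal test as deposited either. CHS6 rose from 10.5 to 14.3 FPKM by the authors' deposited table, 1.36-fold, with a log2 fold change of 0.45 (implied standard error 0.25, q = 0.0138, Cuffdiff). It did not pass the normal test as deposited and passed it relative to the median, at 0.79. Freed of the trend of fold changes with coding length it did not pass, at 0.58.

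CTS1, the chitinase of cell separation, fell from 414 to 241 FPKM with CdSe/ZnS by the authors' deposited table, a 1.72-fold drop. Its log2 fold change was -0.78 (implied standard error 0.26, q = 0.000173, Cuffdiff), and relative to the median it was -0.43 and did not pass. CTS2 stood at 19.5 and 16.0 FPKM, with a log2 fold change of -0.29 that did not pass (q = 0.129, Cuffdiff). In bulk RNA a change in every cell and a change in the share of cells at the stage that transcribes a gene cannot be told apart, which touches CTS1 and CHS2 above all, since both are transcribed in a short part of the cell cycle.

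**Figure D2:**
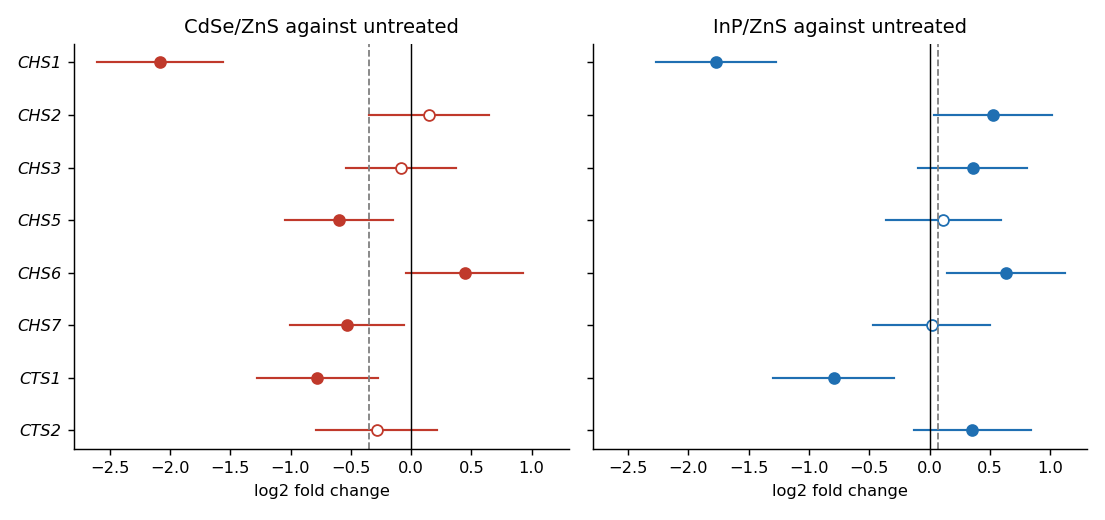
Log2 fold change of each gene against untreated cells by the authors' deposited tables, with 95% intervals from the implied standard error; filled points have the authors' q under 0.05, and the dashed line is the median of all tested entries (-0.35 with CdSe/ZnS, 0.07 with InP/ZnS). CHS1 stands apart on the left in both panels, and CTS1 has a similar position in both.

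For InP/ZnS quantum dots the question was the same. CHS1 and CTS1 fell again, CHS2, CHS3, CHS6 and CTS2 rose by less than 1.6-fold, and CHS5 and CHS7 did not pass. Thus 2 of 8 genes were called lower and 4 higher, where 17.2% of 6367 tested entries were called lower and 23.9% higher (41.1% called in all). The median log2 fold change was 0.23 over the 8 genes and 0.07 over all tested entries. None of the 4 genes called higher passed the normal test as deposited (2 had an unadjusted p under 0.05) or relative to the median of all entries (1 had an unadjusted p under 0.05). Relative to that median, 7.87% of all entries were higher and 8.32% lower, and CHS1 and CTS1 were lower.

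CHS1 went from 291 to 85.4 FPKM with InP/ZnS by the authors' deposited table, a 3.41-fold drop. Its log2 fold change was -1.77 (implied standard error 0.25, q = 0.000252, Cuffdiff, the smallest that table holds) and the 42nd lowest of 6367. CHS1 again made up a smaller part of the summed FPKM of the 3 catalytic subunits, 71.3% after exposure against 92.0% before. CTS1 fell from 466 to 268 FPKM by the authors' deposited table, a 1.74-fold drop with a log2 fold change of -0.79 (implied standard error 0.25, q = 0.000252, Cuffdiff). Relative to the median it was -0.86 and passed.

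CHS2 rose from 11.2 to 16.2 FPKM and CHS3 from 14.2 to 18.3 FPKM with InP/ZnS by the authors' deposited table. The log2 fold changes were 0.53 (implied standard error 0.25, q = 0.000681, Cuffdiff) for CHS2 and 0.36 (implied standard error 0.23, q = 0.0253, Cuffdiff) for CHS3. Neither passed the normal test as deposited. CHS1 had been 25.9 times the level of CHS2 in the untreated cells of the table and stood at 5.28 times after exposure, so the 3 catalytic subunits moved closer together.

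CHS6 rose from 12.3 to 19.0 FPKM with InP/ZnS by the authors' deposited table, 1.55-fold, with a log2 fold change of 0.64 (implied standard error 0.25, q = 0.000252, Cuffdiff). Its partners in the export of Chs3 did not pass: CHS5 stood at 157 and 169.9 FPKM (log2 fold change 0.11, 95% interval -0.36 to 0.59, q = 0.549, Cuffdiff). CHS7 stood at 53.7 and 54.4 FPKM (log2 fold change 0.02, 95% interval -0.47 to 0.50, q = 0.929, Cuffdiff). CTS2 rose from 21.4 to 27.4 FPKM by the authors' deposited table, with a log2 fold change of 0.35 (implied standard error 0.25, q = 0.0385, Cuffdiff). The part of YDR371C-A, the entry at its locus, in the value of CTS2 was not tested.

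The difference between the exposures was tested for each gene as the InP/ZnS minus the CdSe/ZnS log2 fold change, divided by the standard error of that difference, the square root of the sum of both squared implied errors. The doses differ and the untreated libraries are shared, so the test compares the exposures as given. The error of the shared untreated libraries enters this standard error through both fold changes, which makes the intervals too wide and the test conservative, by an amount that cannot be worked out without values per library. None of the 8 genes passed (1 had an unadjusted p under 0.05, CHS5), where 12.0% of 6290 entries tested in both tables were called higher with InP/ZnS and 0.318% lower. CHS5 had the largest difference, 0.71 (95% interval 0.06 to 1.36). CTS2 differed by 0.64 (-0.05 to 1.34), CHS7 by 0.55 (-0.13 to 1.22), CHS3 by 0.44 (-0.20 to 1.08), CHS2 by 0.38 (-0.32 to 1.08) and CHS1 by 0.31 (-0.41 to 1.03). CHS6 differed by 0.19 (-0.50 to 0.88) and CTS1 by -0.02 (-0.72 to 0.69). The median difference of all entries was 0.41. Relative to the medians of both tables, 2.07% of entries were higher and 0.986% lower, none of the 8 genes passed (0 at an unadjusted p under 0.05), and the differences ran from -0.43 for CTS1 to 0.29 for CHS5.

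**Figure D3:**
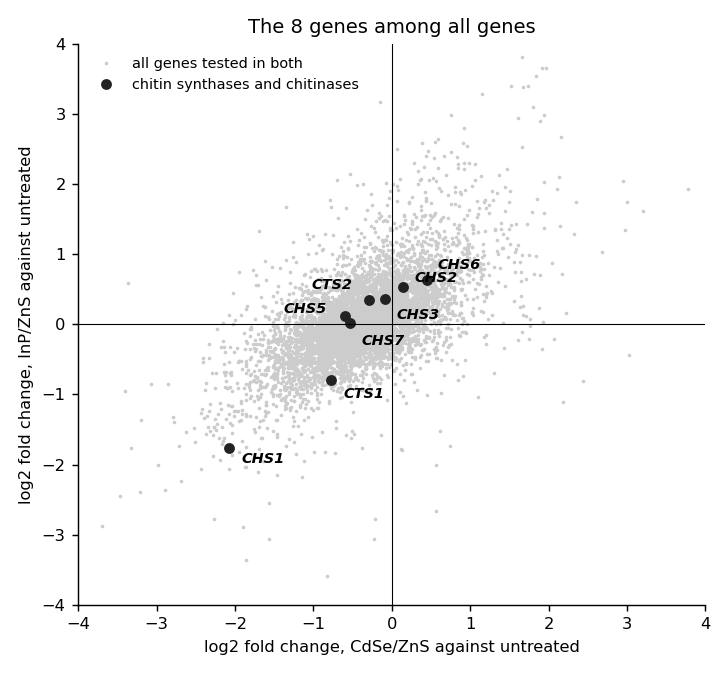
Log2 fold change with CdSe/ZnS (horizontal) against that with InP/ZnS (vertical) by the authors' deposited tables, grey for entries tested in both and black for the 8 genes; 9 entries lie outside the axes, and the untreated libraries are shared by both axes, which by itself draws points towards the diagonal. CHS1 sits at -2.08 and -1.77, CTS1 at -0.78 and -0.79, and the other 6 genes lie near the bulk of entries.

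By the distance between points in that plot, the 3 protein-coding genes most like CTS1, among 4768 that were alone at their locus and reached 10 FPKM, were OCA5, RPL6B and PAC10, at distances of 0.03, 0.05 and 0.05 log2 units. Their log2 fold changes by the authors' deposited tables were -0.80 and -0.80 for OCA5, -0.82 and -0.79 for RPL6B, which encodes a ribosomal protein, and -0.79 and -0.75 for PAC10, which encodes a prefoldin subunit, with CdSe/ZnS and InP/ZnS. Those most like CHS2 were ZWF1, which encodes glucose-6-phosphate dehydrogenase, IRA1, a negative regulator of Ras, and MDM36, each at a distance of 0.02 log2 units. The likeness rests on 2 fold changes only.

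The wider chitin pathway was covered by 16 more genes, of which 14 were tested with CdSe/ZnS and 15 with InP/ZnS. With CdSe/ZnS 2 were higher and 7 lower, and with InP/ZnS 2 were higher and 5 lower; their median log2 fold changes were -0.38 and -0.09. Over all entries, 43.6% were lower and 9.59% higher with CdSe/ZnS (median -0.35), and 17.2% lower and 23.9% higher with InP/ZnS (median 0.07), so the CdSe/ZnS counts are near the background. Relative to those medians 2 were higher and 4 lower with CdSe/ZnS, and 0 higher and 3 lower with InP/ZnS. By that measure 11.9% of all entries were higher and 13.6% lower with CdSe/ZnS, and 7.87% higher and 8.32% lower with InP/ZnS. The 3 transglycosylase genes for linking chitin to glucan were lower in both comparisons, and 2 of them were also lower relative to the median in each. CRH1 had the steepest fall of the 16 genes in both tables: it fell from 311 to 72.4 FPKM with CdSe/ZnS and from 373 to 199 FPKM with InP/ZnS by the authors' deposited tables, log2 fold changes of -2.10 and -0.91. UTR2, which encodes Crh2, fell from 56.7 to 23.7 and from 69.8 to 41.2 FPKM, and CRR1, its relative of the spore wall, fell by 0.66 and 0.58 on the log2 scale by the authors' deposited tables. The fall of CRH1 differed between the exposures by 1.19 (implied standard error 0.33), which passed, and relative to the medians by 0.78, which did not.

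The enzymes that make UDP-N-acetylglucosamine, the substrate of all 3 synthases, moved in different directions. GFA1, which catalyses the first committed step, rose from 37.5 to 59.3 FPKM with CdSe/ZnS and from 42.6 to 67.8 FPKM with InP/ZnS by the authors' deposited tables. PCM1, the mutase, fell from 98.1 to 51.4 and from 119.5 to 88.1 FPKM. QRI1, the pyrophosphorylase, fell with CdSe/ZnS (log2 fold change -0.39 by the authors' deposited table) and did not pass with InP/ZnS (-0.09). GNA1, the acetyltransferase, passed in neither (-0.22 and -0.02). Relative to the median of all entries, GFA1 was higher (1.01) and PCM1 lower (-0.58) with CdSe/ZnS, and QRI1 did not pass (-0.05). With InP/ZnS 0 genes of this list passed by that measure, with GFA1 at 0.60 and PCM1 at -0.51. QRI1 with CdSe/ZnS and PCM1 with InP/ZnS did not pass the normal test as deposited either.

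In the list of Chs3 export and activation, 10 genes with CHS5, CHS6 and CHS7 among them, 2 were higher and 4 lower with CdSe/ZnS, and 2 were higher and 1 lower with InP/ZnS; the share of lower calls with CdSe/ZnS is near the 43.6% of all entries. With CdSe/ZnS 9.59% of all entries were higher, and with InP/ZnS 23.9% were higher and 17.2% lower. Relative to the median of all entries the counts of the list became 2 higher and 1 lower, and 0 higher and 1 lower. By that measure 11.9% of all entries were higher and 13.6% lower with CdSe/ZnS, and 7.87% higher and 8.32% lower with InP/ZnS. SKT5, which encodes the activator Chs4, fell from 26.5 to 18.3 FPKM with CdSe/ZnS by the authors' deposited table and stood at 30.2 and 29.5 FPKM with InP/ZnS. Its fall with CdSe/ZnS was -0.19 relative to the median and passed neither by that measure nor by the normal test as deposited. Of the paralogs of Chs6 in exomer, BUD7 fell with both, by 1.12 and 0.80 on the log2 scale by the authors' deposited tables. BCH1 (0.01 and 0.25) and BCH2 (0.04 and -0.05) passed in neither, and SKT5 and BUD7 share a locus with another entry. SHC1, the activator of Chs3 in sporulation, rose by 0.37 and 0.68 on the log2 scale by the authors' deposited tables. With CdSe/ZnS it did not pass the normal test as deposited and passed relative to the median, at 0.71. With InP/ZnS it passed the normal test as deposited and did not pass relative to the median, at 0.61. BNI4, which anchors Chs3 at the bud neck, and PFA4, which palmitoylates it, did not pass in either comparison (-0.14 and -0.13 for BNI4, -0.37 and 0.15 for PFA4).

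The chitin deacetylase genes CDA1 and CDA2, used in spore walls, were between 0.779 and 1.58 FPKM in every condition, and only CDA1 with InP/ZnS was tested, without passing (q = 0.410, Cuffdiff). Of the 21 genes of a sporulation list that holds CTS2, 5 were higher and 4 lower of 14 tested with CdSe/ZnS, and 9 higher and 3 lower of 15 with InP/ZnS. Of all entries 9.59% were higher and 43.6% lower with CdSe/ZnS, and 23.9% higher and 17.2% lower with InP/ZnS. Relative to the median of all entries the counts of the list were 5 higher and 1 lower with CdSe/ZnS, and 2 higher and 2 lower with InP/ZnS. By that measure 11.9% of all entries were higher and 13.6% lower with CdSe/ZnS, and 7.87% higher and 8.32% lower with InP/ZnS. SPS100, IME1, DIT1 and IME2 had log2 fold changes of -3.70, -1.18, 1.04 and 1.03 with CdSe/ZnS by the authors' deposited table, and of -2.88, -0.23, 0.65 and 1.11 with InP/ZnS, where IME1 did not pass.

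CTS1 was set beside the other genes of daughter-cell separation, a list of the Cbk1 kinase pathway and genes transcribed after division. Of these 17 genes, 1 was higher and 8 lower with CdSe/ZnS, and 4 higher and 7 lower with InP/ZnS, with medians of -0.23 and -0.27 where all entries had -0.35 and 0.07. The share of lower calls with CdSe/ZnS is near the 43.6% of all entries, and that with InP/ZnS stands beside 17.2%. Of all entries 9.59% were higher with CdSe/ZnS and 23.9% with InP/ZnS. Relative to the median of all entries 2 of the 17 genes were higher and 4 lower with CdSe/ZnS, and 0 higher and 4 lower with InP/ZnS. By that measure 11.9% of all entries were higher and 13.6% lower with CdSe/ZnS, and 7.87% higher and 8.32% lower with InP/ZnS. EGT2, which acts in septum degradation, fell from 74.2 to 30.3 FPKM with CdSe/ZnS and from 84.6 to 36.1 FPKM with InP/ZnS by the authors' deposited tables. SCW11, a glucanase-like wall protein gene, fell by 0.96 and 0.98 and ASH1, the daughter-specific repressor of HO, by 1.70 and 1.19 on the log2 scale by the authors' deposited tables. MOB2, which encodes the partner of the kinase Cbk1, fell from 51.1 to 13.5 FPKM with CdSe/ZnS and from 59.2 to 41.0 FPKM with InP/ZnS. DSE1, named after its value was seen, was the 1 gene of this list called higher with CdSe/ZnS, at 78.9 and 148 FPKM.

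**Figure D4:**
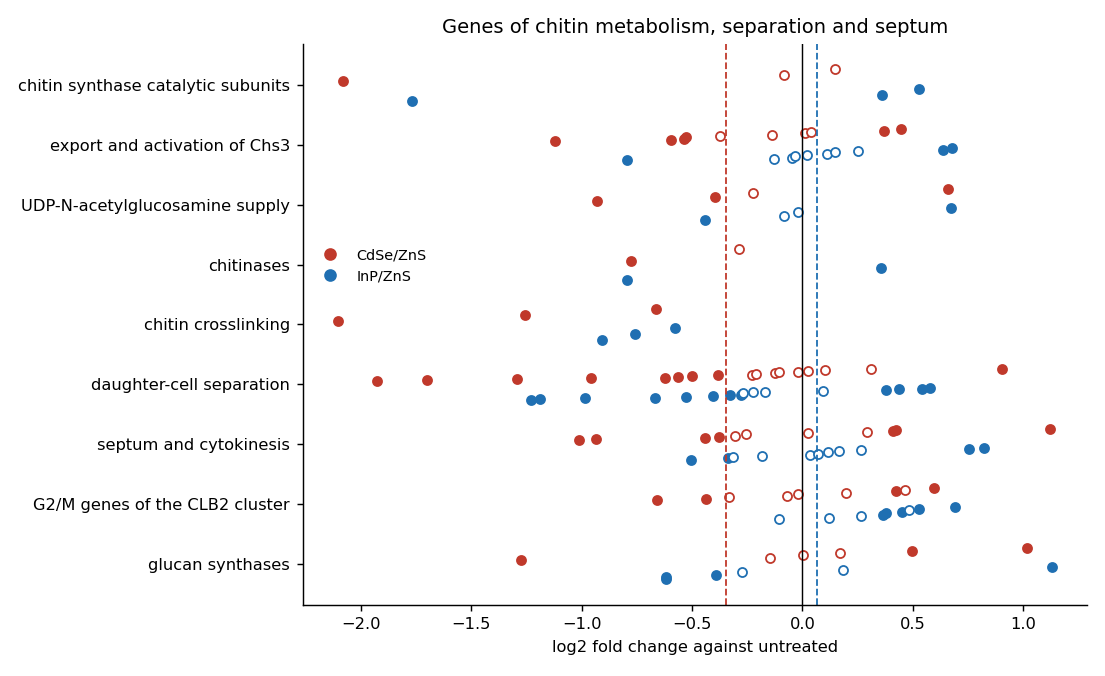
Log2 fold change of each tested gene in 9 lists, red for CdSe/ZnS and blue for InP/ZnS, filled where the authors' q was under 0.05, with dashed lines at the medians of all tested entries (-0.35 and 0.07). The 3 genes of chitin crosslinking lie left of 0 with both quantum dots, and CHS1 is the far left point of the catalytic subunits.

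Genes active at the same division stages as CHS2 were mixed. Of 9 genes of the CLB2 cluster, transcribed in G2 and mitosis, 2 were higher and 2 lower with CdSe/ZnS, and 5 were higher and none lower with InP/ZnS, where 23.9% of all entries were higher. Relative to the median of all entries 2 were higher and 0 lower with CdSe/ZnS, and 0 higher and 0 lower with InP/ZnS. CDC5, the polo kinase gene, rose by 0.60 and 0.45, and CDC20 fell by 0.66 with CdSe/ZnS and rose by 0.53 with InP/ZnS, on the log2 scale by the authors' deposited tables. HST3 and ALK1 had log2 fold changes of 0.20 (not passed) and -0.44 with CdSe/ZnS and 0.69 and 0.37 with InP/ZnS. Of 11 genes of the septum and cytokinesis, 3 were higher and 4 lower with CdSe/ZnS, and 2 higher and 2 lower with InP/ZnS. Relative to the median these became 3 higher and 2 lower, and 2 higher and 0 lower. Of all entries 9.59% were higher and 43.6% lower with CdSe/ZnS, and 23.9% higher and 17.2% lower with InP/ZnS. Relative to the median those shares were 11.9% higher and 13.6% lower with CdSe/ZnS, and 7.87% higher and 8.32% lower with InP/ZnS. MYO1, the myosin of the contractile ring, rose from 7.87 to 17.1 and from 8.06 to 14.2 FPKM by the authors' deposited tables. IQG1, its IQGAP partner, rose by 0.41 and 0.75 as log2 values. The septin genes CDC3 and CDC12 fell by 0.94 and 1.01 with CdSe/ZnS and by 0.34 and 0.50 with InP/ZnS, as log2 values. Freed of the trend with coding length, MYO1 passed with both quantum dots (0.98 and 0.60) and IQG1 with neither (0.26 and 0.53). Of the 3 genes called higher with CdSe/ZnS, MYO1 alone passed by that measure. IQG1 did not pass the normal test as deposited with CdSe/ZnS either.

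The glucan synthase FKS1, which makes the main polymer that chitin is attached to, rose from 36.4 to 73.8 FPKM with CdSe/ZnS by the authors' deposited table and did not pass with InP/ZnS, at 41.5 and 47.1 FPKM. SKN1 rose by 0.50 and 1.13, RHO1, the GTPase that activates glucan synthase, fell by 1.28 and 0.62, and GAS1 had log2 fold changes of -0.15 (not passed) and -0.62 by the authors' deposited tables. GAS1 shares a locus with another entry. Over the 6 genes of that list, 2 were higher and 1 lower with CdSe/ZnS, and 1 higher and 3 lower with InP/ZnS. Relative to the median they were 2 higher and 1 lower, and 1 higher and 2 lower. Of all entries 9.59% were higher and 43.6% lower with CdSe/ZnS, and 23.9% higher and 17.2% lower with InP/ZnS. Relative to the median those shares were 11.9% higher and 13.6% lower with CdSe/ZnS, and 7.87% higher and 8.32% lower with InP/ZnS. The difference between the exposures of FKS1 was -0.84, which did not pass, and relative to the medians it was -1.25, which passed.

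The DNA upstream of the 8 genes was searched on both strands for GTAAACA (forkhead factors), TGAAACA (Ste12), AGGGG (Msn2 and Msn4) and loose forms of the Crz1 and Rlm1 motifs. These were GNGGCNCA for Crz1, and CTA, NNNN and TAG in a row for Rlm1, where N is any base. In the window from 250 bases before to 50 after the start, AGGGG was found in CHS2, TGAAACA in CHS3 and the Rlm1 motif in CTS2, which 21.6%, 7.50% and 5.57% of 6001 promoters hold. GTAAACA and GNGGCNCA were found there in none of the 8 genes and in 6.55% and 3.70% of promoters. In 800 bases upstream, a window chosen after the shorter one was seen and which can reach into a neighbouring gene, 7 of the 8 genes held a match of some motif, as did 73.2% of all windows. CTS1 held GTAAACA at 430, TGAAACA at 445 and AGGGG at 400 bases before the start codon, motifs found in 15.0%, 18.8% and 48.2% of 5997 such windows. The loose Rlm1 motif, found in 13.9% of windows, was held by CHS1 at 467, CHS2 at 689, CHS6 at 369 and CTS2 at 29. Each of these matches held a G or C among the NNNN, so none would remain if those bases were limited to A or T. In CHS1, CHS2 and CHS6 the Rlm1 match lay in the neighbouring gene, whose nearest edge is 457, 445 and 327 bases upstream. CHS1, the gene with the steepest fall of the 8, held TGAAACA and GNGGCNCA close together, and that stretch is shown with the matches in capitals.
CHS1: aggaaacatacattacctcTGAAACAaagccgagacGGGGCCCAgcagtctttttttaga
It runs from 360 to 301 bases before the start codon (chrXIV:276142-276201, plus strand, R64), with TGAAACA at 341 and GNGGCNCA, found in 13.1% of windows, at 324. The matches do not overlap, and the share of windows that hold both motifs was not counted. The GNGGCNCA match has C at the second N, so it would not remain if that base were limited to G or T. A match is a description of letters and not of binding.

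**Figure D5:**
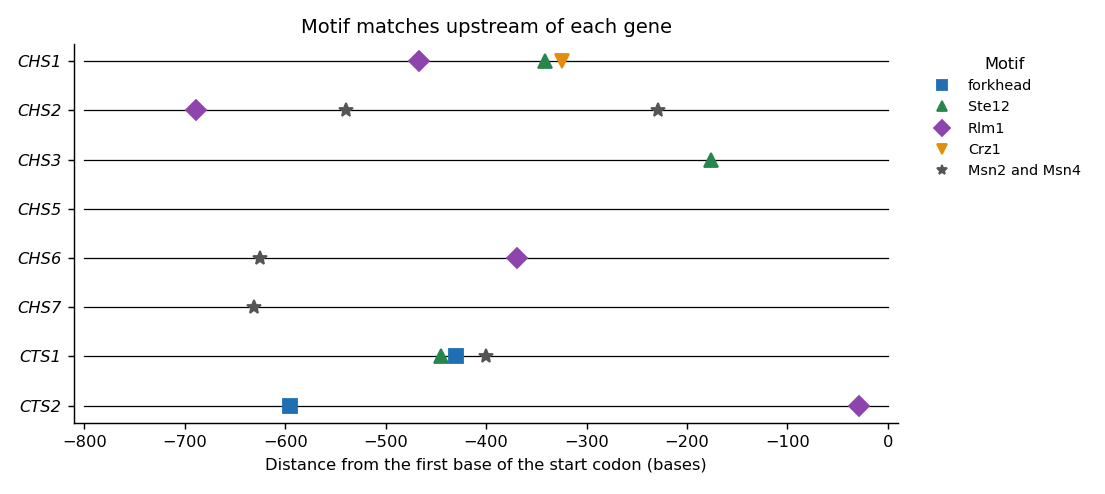
Position of each motif match in the 800 bases upstream of the 8 genes, as distance from the first base of the start codon. Symbols mark the motif, on either strand, with the Crz1 and Rlm1 motifs in their loose forms. CTS1 has matches of 3 motifs between 445 and 400 bases before the start, and CHS5 has no match of any of the 5 motifs.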

How the data were processed

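Per the deposited text sheets, bases under a quality of 20 were removed, 12 bases were cut at the 5′ side of each read, and reads shorter than 80 bp were dropped; the reads were aligned with TopHat to the S288C genome of SGD and assembled with Cufflinks in Galaxy. The submitters' processing notes also name Cuffdiff. Versions, build number and use of strand: not given in the sources used here. The authors deposited FPKM as 1 value per gene and condition, the log2 fold change without a pseudocount, Cuffdiff's test score, and p-values and q-values, per the file headers. Treated values are the second column, since the authors' deposited lists of higher genes match it. The q-values, adjusted over 6321 and 6367 tested entries, gave the calls; the smallest p, 5e-05, is a limit of the method.

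Computed here, with Python 3.11.15, numpy, pandas and scipy 1.17.1: the implied standard error (log2 fold change over test score), normal tests with Benjamini-Hochberg adjustment across all genes, folds relative to the median or freed of the trend with coding length (medians of 20 bins), and the difference between exposures. The tests were run on simulated data as a check of the code. The simulated errors were drawn from the same implied standard errors, independently for each table. The run therefore cannot show whether the implied errors are right or what the shared untreated libraries do. Of the tested entries in each, 90.2% matched the RefSeq R64 annotation, 90.0% of them with the same start and end, the 8 genes included. Named were all 8 genes, all genes of 4 chitin lists, up to 4 called genes per other list by smallest q, and the 3 genes most like CTS1 and CHS2. The untreated levels of the a-cell and alpha-cell lists served to describe cell type, which calls between conditions cannot show. With CdSe/ZnS 1 of 6 a-cell and 0 of 3 tested alpha-cell genes were higher, and 4 and 1 were lower. Of all entries 9.59% were higher and 43.6% lower there. With InP/ZnS 4 of 6 and 0 of 4 were higher, and 0 and 0 were lower. There 23.9% of all entries were higher and 17.2% lower. Members and lists were chosen with earlier results of these data known. Protein sequences were not used here. A gene of the lists and its binding motif are not reported here, and list counts leave it out.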

Additional observations from a re-analysis of the deposited data

How the results depend on the processing

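CHS1 stayed lower and passed with both quantum dots under every alternative that has a test, with log2 fold changes of -2.08 to -1.74 (CdSe/ZnS) and -1.91 to -1.77 (InP/ZnS); the pseudocount of 1 FPKM gave values only (-2.06 and -1.76). Of the 8 genes, 1 higher call with CdSe/ZnS became 0 under q under 0.01, a log2 change of at least 1 in size, the normal test as deposited, and freeing of the length trend. The 4 higher calls with InP/ZnS became 2 under q under 0.01, and 0 under a log2 fold change of at least 1, the normal test as deposited, freeing of the length trend and centring on the median. The 4 lower calls with CdSe/ZnS became 1 under a log2 fold change of at least 1, freeing of the length trend and centring, and 3 under the normal test as deposited, where CHS7 lost its call. The 2 lower calls with InP/ZnS became 1 under a log2 fold change of at least 1. Centring reversed the sign of CHS3 (0.27) and CTS2 (0.061) with CdSe/ZnS, of CHS7 with InP/ZnS (-0.048), and of the differences between exposures of CHS1 (-0.10), CHS2 (-0.036) and CHS6 (-0.22). Freeing of the length trend reversed CHS7 with InP/ZnS (-0.0021) and the difference of CHS6 (-0.059). None of these had passed. The median log2 fold change was 0.05 (CdSe/ZnS) and 0.19 (InP/ZnS) for coding lengths over 3000 bp and -0.61 and -0.0035 for those up to 1000 bp; the cause was not tested. The longer upstream window, chosen after seeing the data, moved the genes with a match of any motif from 3 to 7. No paired analysis was possible because values per library were not analysed here, and leaving out a library could not be run for the same reason.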
